A study of Homo sapiens with 4 samples.

Results

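The rows of the gene identifiers ENSG00000111644.8 and ENSG00000105968.19 in a table of ribosome footprint counts are described here, named below without their version numbers. They are 2 of 78724 rows in the deposited table and 2 of 9443 rows that held any read. The rows were chosen by their place: on the older human genome build GRCh37, which the submitters' processing notes name for these reads, the same spans hold GAPDH and PPIA. That these reads come from GAPDH and PPIA is therefore an inference from place. It rests on general knowledge of the older build, since no annotation of that build was used here, and no coordinates were converted. The choice was also made knowing that these rows hold many reads, so their height in the table describes them and supports nothing.

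Footprints are the stretches of mRNA that a ribosome shields from nuclease, and their number on a gene reflects the mRNA present and the ribosomes on it. A level footprint count therefore need not mean level mRNA or a level rate of translation. The libraries came from A375, an established human melanoma line, kept for 48 h in arginine-free medium (2 libraries) or in control medium (2 libraries). The arginine-free medium was built from an RPMI base lacking amino acids by adding back glucose, pyruvate and every amino acid but arginine. The labels do not give the composition of the control medium during those 48 h, and routine culture was in DMEM with serum. The labels do not state whether replicates were grown separately, so a p-value here may reflect technical spread alone.

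Total counts were 234766 and 192006 in arginine-free replicates 1 and 2, and 105004 and 217989 in control replicates 1 and 2. Mitochondrial rows took 18.2% and 24.6% of the reads in arginine-free medium, against 16.5% and 26.2% in control medium. Shares below are therefore of nuclear reads. A fit on nuclear rows alone gave log2 fold changes of 0.04 for ENSG00000111644 and -0.22 for ENSG00000105968. Of the 6 melanocytic marker genes looked for, 5 matched a row and 3 of these rows were listed at 0. The row at TYRP1 had 1 and 0 reads in arginine-free medium, against 16 and 25 in control medium. Its log2 fold change was -5.39 (SE 0.75, edgeR adjusted p = 0.000104). The row at MLANA had 0 and 2 reads, against 6 and 10, and was not tested. The source of the reads on these rows is uncertain, so the table was not used to check the cell line's identity.

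GAPDH is the glycolytic enzyme that oxidises glyceraldehyde 3-phosphate and passes the electrons to NAD. PPIA, or cyclophilin A, is an abundant cytosolic enzyme that turns proline bonds in proteins and is the binding partner of the drug cyclosporin. Both are made in nearly all cells and are often taken as reference genes, that is, as genes against which other transcripts are scaled. Such use assumes that the reference itself holds its level between the conditions compared. GAPDH mRNA is known to move in some metabolic states, so this assumption is usually checked.

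In the deposited table, whose coordinates match GRCh38, ENSG00000111644 lies on the minus strand of chromosome 12, from 6638075 to 6647432. RefSeq's gene at that place on GRCh38 is ACRBP, the acrosin-binding protein of sperm, which is also known as a cancer-testis antigen. The row has 10 exon blocks with 1987 bases in all. It held 8379 reads over the 4 libraries, the second most of any nuclear row (rank 2) and rank 5 with the mitochondrial rows included. The row that the table itself gives to GAPDH, ENSG00000111640 (chromosome 12, 6534517 to 6538374, plus strand), ends 99700 bases before it and was listed at 0 in all 4 libraries. A count of 0 allows up to 3 counts, or 12.8 to 15.6 CPM of all rows in the arginine-free libraries and 13.8 to 28.6 in the control libraries.

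ENSG00000105968 lies on the minus strand of chromosome 7, from 44826791 to 44848087, and the RefSeq gene there on GRCh38 is H2AZ2, a histone H2A variant made throughout the cell cycle. Its 6 exon blocks hold 7003 bases, and it held 4623 reads, rank 8 among nuclear rows and rank 11 overall. The table's own PPIA row, ENSG00000196262 (chromosome 7, 44796680 to 44803117, plus strand), ends 23673 bases before it. That row had 17 and 11 reads in arginine-free medium, against 10 and 14 in control medium, 52 in all.

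The way reads were counted bears on how these rows can be read. Reads were counted without regard to strand, so reads of plus-strand genes such as GAPDH and PPIA can enter these minus-strand rows. Only reads on the rows' own exon blocks were counted, so if the reads come from GAPDH and PPIA the rows hold an unknown part of them, and neither reads per kilobase nor the ratio between the rows is a ratio of the levels of the genes. No other row shared exon bases with either row (0 rows each), so no read was lost there to overlap with a second annotated gene. Other losses, such as of reads that match several places in the genome, were not examined.

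**Figure D1:**
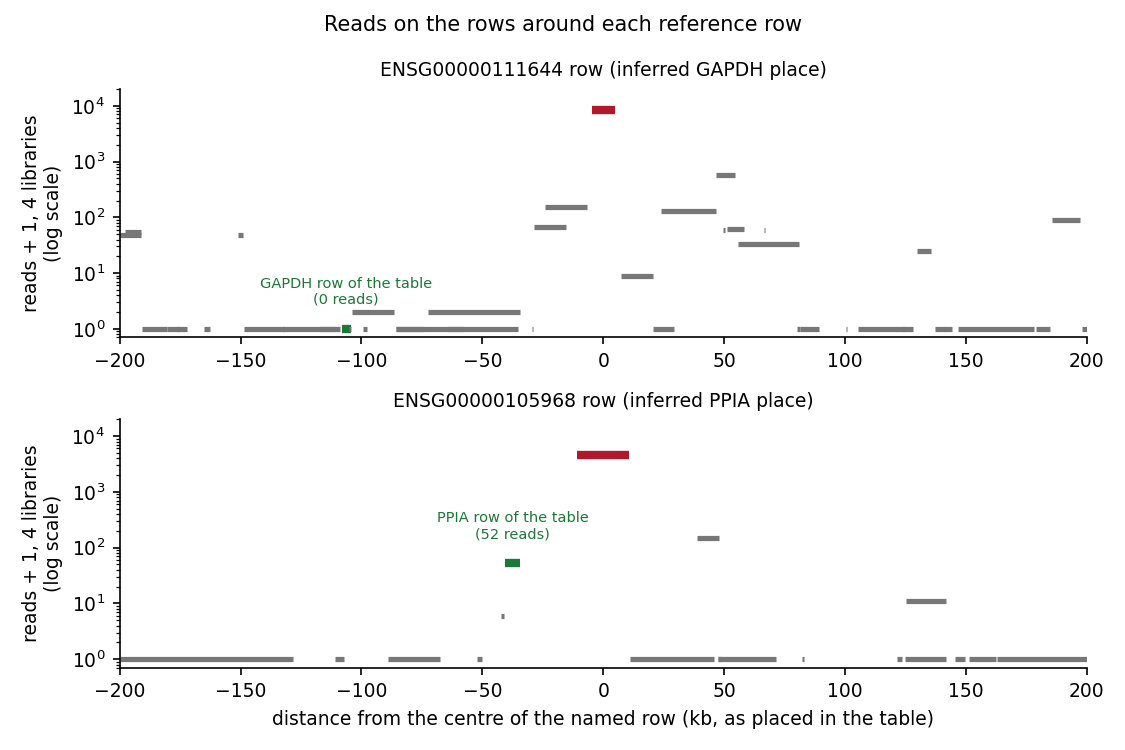
Reads summed over the 4 libraries (vertical axis, reads + 1, log scale) for every row within 200 kb of the centre of ENSG00000111644 (top) and ENSG00000105968 (bottom), drawn as bars at their distance in kb. The 2 rows (red), with 8379 and 4623 reads, stand above all their neighbours, while the table's own GAPDH and PPIA rows (green) hold 0 and 52 reads.

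The neighbourhoods held fewer rows at 0 than the table as a whole, and no other protein-coding row near the 2 rows came close to their reads. Within 1 Mb on either side of ENSG00000111644, 26 of 44 other protein-coding rows (59.1%) were at 0, and the highest held 488 reads. Around ENSG00000105968, 15 of 26 (57.7%) were at 0 and the highest held 393. Of all 18302 protein-coding rows, 71.8% were at 0. The nearest rows with reads are named by place only, so the gene at a place may not be where the reads arose. Before ENSG00000111644 these were the rows at LPAR5 (152 reads), LOC105369631 (67 reads) and CHD4 (1 read), and after it those at ING4 (8 reads) and ZNF384 (129 reads) and the unnamed ENSG00000289303 (566 reads). Before ENSG00000105968 these were the table's PPIA row (52 reads) and the rows at LOC105375259 (5 reads) and CAMK2B (8 reads), and after it those at PURB (146 reads), MYO1G (10 reads) and TBRG4 (1 read).

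The row at the GAPDH place was close to level between the media. It had 2661 and 2110 reads in arginine-free replicates 1 and 2, and 1304 and 2304 reads in control replicates 1 and 2. As a share of nuclear reads this was 1.39% (95% Wilson interval 1.33 to 1.44) and 1.46% (1.40 to 1.52) in arginine-free medium, against 1.49% (1.41 to 1.57) and 1.43% (1.37 to 1.49) in control medium. The groups overlap, and the lowest and the highest share are both those of a first replicate, one in each medium. Wilson intervals and the limit for a count of 0 cover counting error only, since amplified fragments without molecular identifiers are not independent molecules.

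On the scale used for testing, counts scaled to the TMM-adjusted total of the tested rows (CPM), the row stood at 12389 ± 1222 CPM in arginine-free medium and at 12053 ± 335 CPM in control medium (SD, n = 2 each). The fitted log2 fold change of arginine-free over control was 0.04 (SE 0.25, edgeR quasi-likelihood adjusted p = 0.917). Its 95% interval ran from -0.50 to 0.58, or from 0.708-fold to 1.49-fold. A change within those bounds could not be told from none with 2 libraries a group. The difference of the means was smaller than the SD of the arginine-free libraries.

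The row at the PPIA place was lower in both arginine-free libraries, by an amount that did not pass the test. It had 1286 and 1130 reads in arginine-free replicates 1 and 2, and 781 and 1426 reads in control replicates 1 and 2. The shares of nuclear reads were 0.670% (95% Wilson interval 0.634 to 0.707) and 0.780% (0.736 to 0.827) in arginine-free medium, against 0.890% (0.830 to 0.955) and 0.886% (0.841 to 0.933) in control medium. The groups do not overlap, the 2 control libraries are nearly equal, and arginine-free replicate 1 lies farthest from them. Groups of 2 libraries can easily separate without any change, and the share of tested rows that do so is not given here.

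In CPM the row stood at 6334 ± 1081 in arginine-free medium and at 7337 ± 33.3 in control medium (SD, n = 2 each). Arginine-free replicate 2, at 7098 CPM, came close to the control libraries at 7360 and 7313 CPM, while arginine-free replicate 1 was at 5569 CPM. The log2 fold change was -0.21 (SE 0.24, edgeR adjusted p = 0.536), with a 95% interval from -0.73 to 0.31, or from 0.601-fold to 1.24-fold. Without arginine-free replicate 1 the log2 fold change was -0.00051 (edgeR adjusted p = 0.998), and with at least 50 counts required in every library of a group it was -0.45 (edgeR adjusted p = 0.0928).

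**Figure D2:**
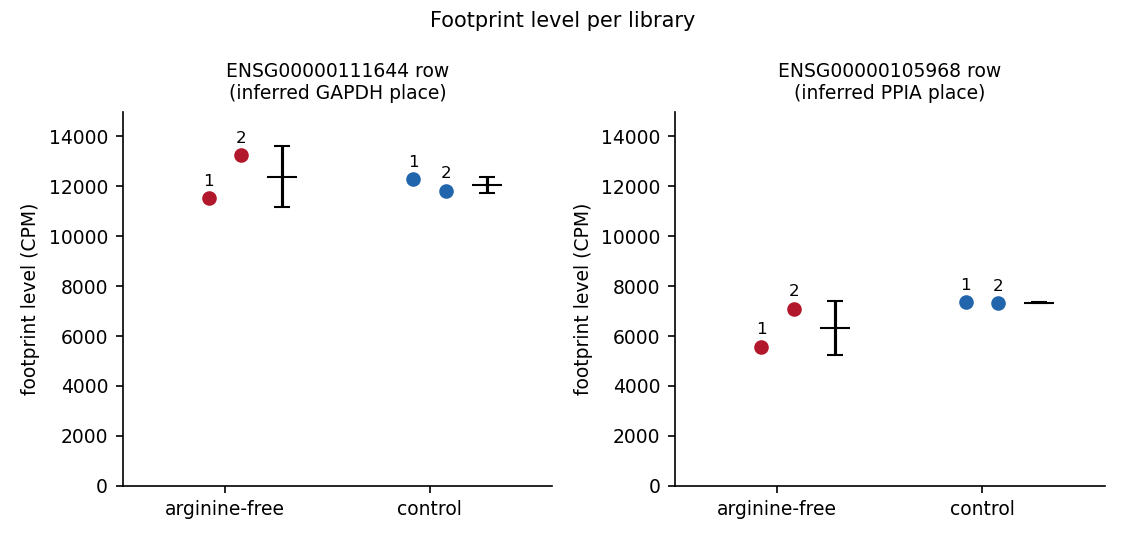
Footprint level in CPM for each library (points, numbered by replicate) in arginine-free and control medium, with the mean and SD (n = 2 each) beside them. The ENSG00000111644 row lies between 11524 and 13253 CPM with overlapping groups, and the ENSG00000105968 row at 5569 and 7098 CPM in arginine-free medium, below 7360 and 7313 CPM in control medium.

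Of 2526 tested rows, 33.0% were called at an edgeR adjusted p under 0.05, 16.0% being higher and 16.9% lower without arginine, and neither of the 2 rows was among them. This share depends on the processing: DESeq2 called 162 rows higher and 147 lower of 2669 with an adjusted p, and without control replicate 2 edgeR called 270 higher and 243 lower of 2826. Neither row was called there either. Among the 25 nuclear rows with the most reads, 16 were called, 12 of them higher and 4 lower. In that set no row had a smaller absolute log2 fold change than ENSG00000111644 and 3 had a smaller one than ENSG00000105968, while the median was 0.83. The coefficient of variation of CPM over the 4 libraries was 6.19% for ENSG00000111644 and 12.5% for ENSG00000105968, against a median of 40.4% over the 25 rows. Among all 591 tested rows with a mean count of at least 50, 1.35% and 11.5% had a smaller coefficient of variation than these rows. The highest library was 1.15 times the lowest for ENSG00000111644 and 1.32 times for ENSG00000105968, against a median of 1.88 times over the 591 rows. The mean counts of these rows were 2095 and 1156, far above the cutoff of 50, and rows with fewer reads carry more counting error. How far depth sets these ranks was not tested. The ranks describe the rows and are not a test.

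**Figure D3:**
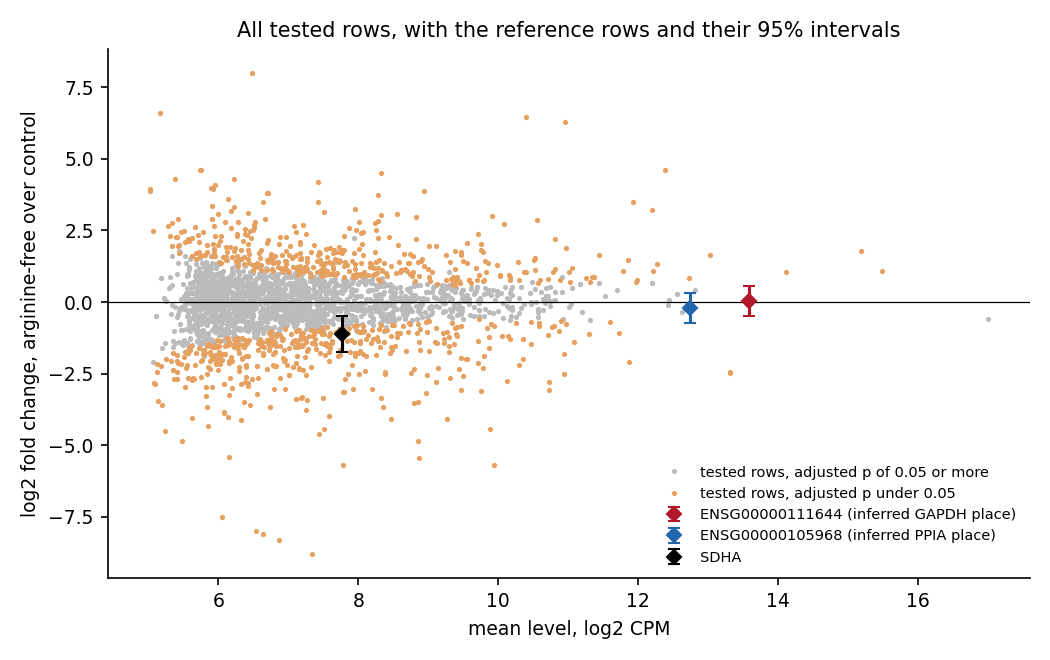
Log2 fold change of arginine-free over control (vertical axis) against the mean level in log2 CPM (horizontal axis) for the 2526 tested rows, coloured by whether they passed the edgeR test. The rows at the GAPDH and PPIA places (0.04 and -0.21) lie near 0 among the most abundant rows. The row at SDHA (-1.12), named by place only, lies below 0. Each is drawn with its 95% interval.

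Within a library, depth and scaling cancel in the ratio of the 2 rows. Reads on ENSG00000111644 per read on ENSG00000105968 numbered 2.07 (95% counting interval 1.94 to 2.21) and 1.87 (1.74 to 2.01) in arginine-free replicates 1 and 2, against 1.67 (1.53 to 1.82) and 1.62 (1.51 to 1.73) in control replicates 1 and 2. Both arginine-free libraries had the higher ratio. The mean log2 ratio was 0.97 ± 0.10 in arginine-free medium and 0.72 ± 0.034 in control medium (SD, n = 2 each), a difference of 0.26, or 1.20-fold. An exact two-sided permutation test gave p = 0.333, which is the smallest value this test can give with 2 libraries against 2, so its outcome does not bear on whether the ratio differs.

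Scaling by a single row shifts the fold changes of all rows by about that row's own change, so the direction in which calls move follows from the values above. With libraries scaled by ENSG00000111644 in place of TMM, edgeR called 354 rows higher and 402 lower in arginine-free medium. With libraries scaled by ENSG00000105968 it called 467 higher and 269 lower, so that 63.5% of the called rows were higher, against 48.6% with TMM, where 405 were higher and 428 lower. The geometric mean of both rows gave 396 higher and 321 lower. The median log2 fold change over all tested rows was -0.03 with TMM, -0.06 with ENSG00000111644, 0.21 with ENSG00000105968 and 0.07 with their geometric mean. Without arginine-free replicate 1 the log2 fold change of ENSG00000105968 was -0.00051, while the log2 ratio of the 2 rows still differed by 0.19. As a share of nuclear reads, arginine-free replicate 2 (0.780%) also lay below control replicates 1 and 2 (0.890% and 0.886%).

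SDHA, the flavoprotein subunit of respiratory complex II, is another common reference gene. The row at SDHA (chromosome 5, 218303 to 257082) is named by place only, so its reads may have arisen elsewhere. Of 19 other protein-coding rows within 1 Mb, 7 (36.8%) were at 0, a smaller share than around the 2 described rows. Only 4 of the 19 held at least 20 reads. The row at SDHA had 30 and 23 reads in arginine-free medium, against 31 and 59 in control medium. It stood at 137 ± 10.3 and 297 ± 7.37 CPM (SD, n = 2 each). The log2 fold change of this row was -1.12 (SE 0.30, edgeR adjusted p = 0.0105), with a 95% interval from -1.76 to -0.49. The groups do not overlap, which groups of 2 libraries can easily show without any change. The call ended with DESeq2 (adjusted p = 0.253) and without control replicate 2 (edgeR adjusted p = 0.0645). Whether the change of the row at SDHA differs from those of the rows at the GAPDH and PPIA places was not tested.

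Other reference genes, glycolytic enzymes and cyclophilins were looked up at the table's own rows, where the source of the reads is equally uncertain. Of 25 reference genes, 20 matched a row, 12 of these were at 0, and of 6 tested rows 0 were called higher, 2 lower (SDHA and RPL13A) and 4 did not pass. Over all tested rows the called share was 33.0%, and 2 of 6 is close to it. Their median log2 fold change was -0.56, against -0.03 over all tested rows. It covers 6 rows named by place, from -1.83 at RPL13A to 0.25 at TFRC, and does not describe reference genes as a class. The rows at POLR2A, TFRC and ATP5F1B, with 193, 139 and 47 reads, did not pass. Their log2 fold changes were -0.52, 0.25 and -0.61 (edgeR adjusted p = 0.169, 0.571 and 0.396). The table's own PPIA row, at -0.17, did not pass either. The row at RPL13A had 4 and 7 reads in arginine-free medium, against 11 and 20 in control medium (log2 fold change -1.83, SE 0.53, edgeR adjusted p = 0.0159).

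Of 21 glycolysis genes, 19 matched a row and 14 of these were at 0. The row at PKLR, the pyruvate kinase of liver and red cells, was the 1 tested, with 30 and 18 reads in arginine-free medium, against 41 and 80 in control medium (log2 fold change -1.70, SE 0.29, edgeR adjusted p = 0.000589). The row at PFKL held 25 reads and was not tested. Of 18 cyclophilin names, 16 matched and 12 were at 0. The row at CWC27, a spliceosomal cyclophilin, had 28 and 20 reads in arginine-free medium, against 6 and 11 in control medium (log2 fold change 1.12, SE 0.41, edgeR adjusted p = 0.0486). The table's own PPIA row stood at -0.17 (SE 0.43, edgeR adjusted p = 0.799). If the reads lie on GRCh37, this row does not cover PPIA, and its value is no second reading of that gene. The row at PPIE, with 30 reads, was not tested.

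The tested rows whose log2 CPM, centred over the 4 libraries, lay closest to ENSG00000111644 among the 591 rows were those at AHNAK (chromosome 11, distance 0.089) and NF2 (chromosome 22, 0.12) and the unnamed ENSG00000177600 (chromosome 11, 0.12). Closest to ENSG00000105968 were the unnamed ENSG00000262772 (chromosome 17, 0.054) and the rows at CHID1 (chromosome 11, 0.073) and FCGRT (chromosome 19, 0.085). The 2 described rows lay 0.28 from each other, which put ENSG00000105968 in place 49 for ENSG00000111644, and ENSG00000111644 in place 37 for ENSG00000105968. With 4 libraries many rows share such a pattern, and these distances are descriptions.

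**Figure D4:**
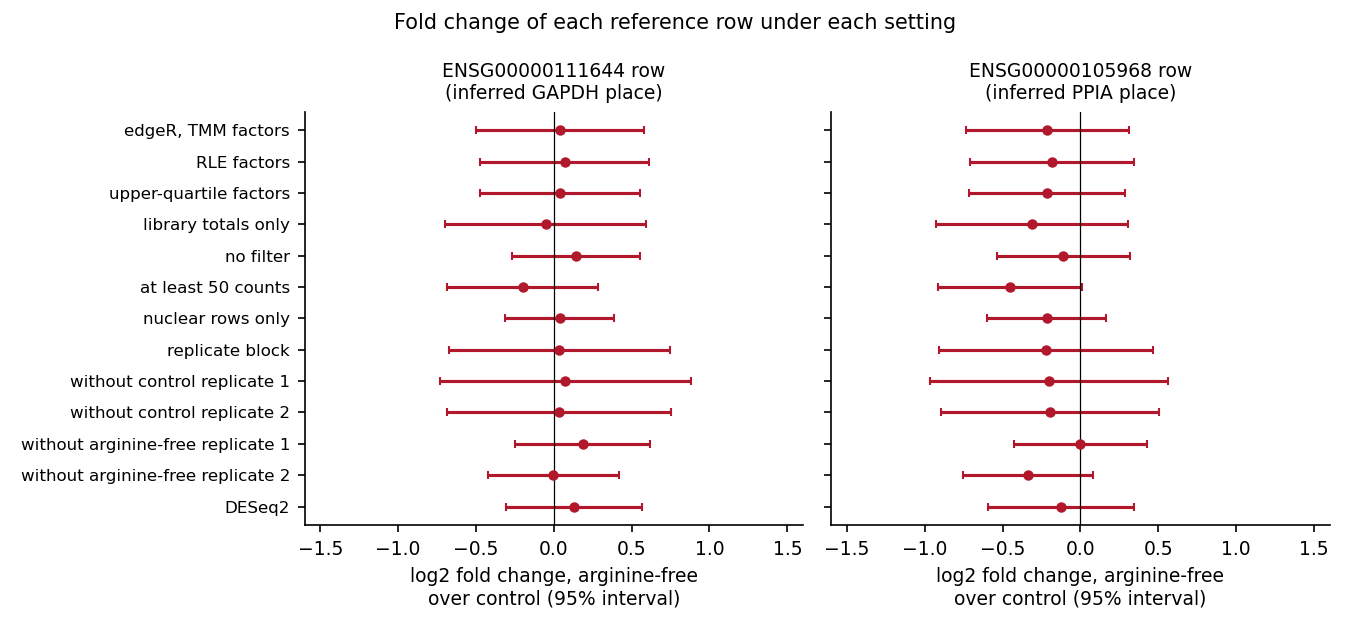
Log2 fold change of arginine-free over control with its 95% interval (horizontal axis) for ENSG00000111644 (left) and ENSG00000105968 (right) under the reported fit and each alternative. Values run from -0.20 to 0.18 on the left and from -0.45 to -0.00051 on the right over the alternatives, and every interval holds 0.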

How the data were processed

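The deposited table holds raw counts per gene. Per the file headers, the authors ran featureCounts 2.0.1 unstranded on exons of GENCODE 47 (basic set). The header also shows the paired-read option, whose effect was not tested, while the labels describe single reads and no removal of ribosomal RNA. The submitters' processing notes list GRCh37 and hg19 as builds, and TopHat2, Bowtie2 2.5.2 and cutadapt as tools. The exon length of a row, in bases, comes from the same deposited table.

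Sample titles gave the groups and replicate numbers. Rows took a symbol from RefSeq (GRCh38.p14) by place, for reciprocal best matches whose shared bases were at least 0.5 of their joint span where an end was identical and 0.75 otherwise, which named 38563 rows. The test was edgeR 4.0.16 (R 4.3.3) with TMM factors, filterByExpr, the quasi-likelihood test and Benjamini-Hochberg adjustment over all 2526 tested rows at 0.05. SE is the size of the log2 fold change divided by the root of the F statistic, and 95% intervals use it with the test's degrees of freedom. Alternatives were other scaling, DESeq2 1.42.0, other filters, nuclear rows alone, a replicate block and each library left out. The test was tried on simulated counts.

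The 2 rows and the gene lists were chosen with earlier results of these data known, so p-values describe these rows. Named are the 2 rows, the table's own rows for their inferred genes, SDHA, list members with at least 20 reads, the 3 nearest rows with reads on each side, and the 3 rows with the smallest Euclidean distance among rows with a mean count of at least 50. Melanocytic marker rows that held any read are also named.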

Additional observations from a re-analysis of the deposited data

How the results depend on the processing

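Neither row passed the test under any of its 12 alternatives, with edgeR or DESeq2 adjusted p from 0.434 to 0.991 for ENSG00000111644 and from 0.0928 to 0.998 for ENSG00000105968. The sign for ENSG00000111644, at 0.04, turned in 3 of them: -0.05 with library totals only, -0.20 with a minimum of 50 counts in each library of either medium, and -0.0035 without arginine-free replicate 2. Leaving out each library gave -0.0035 to 0.18 for this row and -0.34 to -0.00051 for ENSG00000105968, and the log2 ratio between the rows moved from 0.19 to 0.33. The row at SDHA stood at -1.04 with DESeq2 and at -1.14 to -0.996 with each library left out. Counts of called rows were 138 higher and 146 lower with at least 50 counts, where fewer rows entered, 162 and 147 with DESeq2, 269 lower with libraries scaled by ENSG00000105968, and 270 to 418 higher and 243 to 389 lower with each library left out. The cause was not tested. Replicate numbers were not shown to pair the libraries (same-numbered deviations correlated at -0.053). A replicate block gave 0.04 for ENSG00000111644, -0.22 for ENSG00000105968, -1.11 for SDHA and 0.26 for the ratio, with 354 rows higher and 372 lower, and changed no call of these rows. Where a library is left out, the lone library of its medium is assumed to vary like those of the other medium. Control replicate 1 was the shallowest library, at 105004 counts.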
